A study of Triticum aestivum with 4 samples.

Results

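The miRNA profile of wheat crowns in winter dormancy was set against the profiles of the same tissue at 3 growing stages. In the deposited table of 348 miRNAs, 135 had a dormancy value outside the range of the other 3 libraries, and these 135 are the miRNAs described here. Dormancy lay above the highest growing stage for 101 of them (29.0% of 348) and below the lowest for 34 (9.77%). The remaining miRNAs lay between the growing stages or were tied with one of them.

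The plants were Triticum aestivum cultivar Shimai 22, a semi-winter wheat grown in the field, and the labels name no mutant or treatment. Crowns, the stem bases that carry the shoot apex, were sampled at the three-leaf stage, winter dormancy, spring green-up and jointing. These stages differ in plant age and season together, so dormancy cannot be told apart from cold, day length or age. For each stage, equal amounts of total RNA from 3 biological replicates were mixed before 1 library was prepared. No replicate spread can therefore be had, no test between stages was made, and every difference is a comparison of 1 pooled library with others.

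Winter wheat stops visible growth in the cold, while the crown keeps the meristem from which tillers and the spike later arise. A miRNA is a small RNA that guides an Argonaute protein to transcripts of complementary sequence, which are then cleaved or less translated. In plants many conserved miRNAs act on transcription factors of growth and phase change, and a further set acts on copper-binding proteins. In a bulk sample, fewer cells of a type and less RNA per cell cannot be told apart. The table holds miRNAs alone, so the labelled tissue and stage could not be checked against marker genes.

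Values are given as reads per 1000000 mapped reads (RPM), in the order three-leaf, dormancy, green-up and jointing. The depth that the steps of the 2-decimal values imply was 20534000 to 21890000 reads, similar at all stages. Where a value was 0, 3 reads were assumed, which is 0.137 to 0.146 RPM, so a fold against a 0 holds only where that 0 stands for 3 reads or fewer. Intervals are 95% exact binomial intervals of the log2 ratio, and they hold for counting error alone, since no molecular identifiers are described and copies of 1 molecule may be read repeatedly.

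The summed RPM of the 348 miRNAs was 142826, 135687, 107282 and 68950, so the libraries differed in how many mapped reads were miRNAs. The positions, the ratios to the nearest stage and the 2-fold counts were therefore also computed after median-ratio scaling. In it, a library is divided by its typical level over the 200 miRNAs above 0 in all libraries. Summed RPM, shares of miRNA reads, counts of the nearest stage, medians against each growing stage, stage orders and counting intervals are as deposited. The scaling factors were 1.31, 1.28, 0.944 and 0.632, so scaling raised the jointing values and lowered those of three-leaf and dormancy. After it, dormancy was highest for 74 miRNAs (21.3%) and lowest for 55 (15.8%), against 101 and 34 as deposited. Under both scales, 70 were highest and 32 were lowest.

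The sequences of the miRNAs on which the results turn are shown 5′ to 3′ as the deposited table lists them, with the seed (bases 2 to 8) in capitals. They were not compared with rRNA or tRNA sequences. The first set holds miRNAs of the copper, phase change and NF-YA lists that stood highest at dormancy, among which miR169a-5p and miR169g share their seed.
miR156a-5p: uGACAGAAgagagugagcaca
miR169a-5p: cAGCCAAGgaugacuugccga
miR169g: uAGCCAAGgaugacuugccugu
miR528-5p: uGGAAGGGgcaugcagaggag
miR398a-3p: uGUGUUCUcaggucgcccccg
miR398f-5p: aGGGUCGAacugagaacacau
miR397a: uUGAGUGCagcguugaugaac
miR5200a-3p: uGUAGAUAcucccuaaggcuu

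The following had high values at dormancy and were listed at 0 in at least 2 growing stages. By its name, miR394b-3p is a partner strand of the miR394 hairpin family, but its pairing with miR394a was not tested.
miR8135: aAUAUAUUugcagguuugagg
miR394b-3p: aGGUGGGGaugacgucaagu
wheat_miR1560: uAAACCUUcacaaauucccuug

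The miRNAs that stood lowest at dormancy are shown with miR8155, which carries the whole of miR5139 behind 1 further base at its 5′ end and nevertheless stood highest. Because of that base the seeds of miR5139 and miR8155 are shifted against each other.
miR160a-5p: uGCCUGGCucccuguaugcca
miR319b-3p: uUGGACUGaagggugcucccu
miR394a: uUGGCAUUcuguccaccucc
miR172a-5p: gCAGCACCaccaagauucaca
miR9484: aUGUAGGCaagggaagucggca
miR9672b: uACCACGAcugucauuaagca
miR5139: cGAAACCUggcucugauacca
miR8155: uCGAAACCuggcucugauacca

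Among the 101 miRNAs highest at dormancy, most were only slightly above the next library. The median ratio to the nearest growing stage was 1.29, and the three-leaf library was the nearest for 63 of them (2 tied with jointing), green-up for 20 and jointing for 6, while 12 were listed at 0 in every growing stage. Of the 89 with reads in the nearest library, 62 had a counting interval beyond a ratio of 1 and 27 had one that included 1. In the 61 detected in all libraries, the median dormancy value was 1.3 times that of three-leaf, 2.01 times that of green-up and 3.28 times that of jointing. The order dormancy, three-leaf, green-up, jointing was found for 34 of these 61. These medians and orders are as deposited and were not computed after scaling. Scaling lowers dormancy against both spring stages, with factors of 1.28 for dormancy, 0.944 for green-up and 0.632 for jointing. The 101 miRNAs summed to 22380, 32121, 12989 and 7058 RPM, or 15.7%, 23.7%, 12.1% and 10.2% of all miRNA reads.

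The 34 miRNAs lowest at dormancy summed to 2884, 1186, 4679 and 12619 RPM. The nearest growing stage was 1.61 times the dormancy value at the median. After scaling the median ratios were 1.35 for the highest and 1.37 for the lowest on that scale. The nearest was three-leaf for 18, jointing for 11 and green-up for 5. Of the 25 detected at dormancy, 15 had an interval beyond 1 and 10 had one that included 1. In these 25 the three-leaf, green-up and jointing values were 1.6, 2.75 and 3.15 times the dormancy value at the median. These medians too are as deposited, and scaling raises both spring stages against dormancy.

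Every stage had miRNAs outside the range of the others, and dormancy was not the stage with the most. As deposited, three-leaf was highest for 105 and lowest for 24, green-up for 81 and 41, and jointing for 57 and 146. After scaling these counts were 77 and 65 for three-leaf, 91 and 49 for green-up, and 106 and 80 for jointing. Jointing had the most extremes on both scales, while dormancy lost highs and gained lows by scaling.

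**Figure D1:**
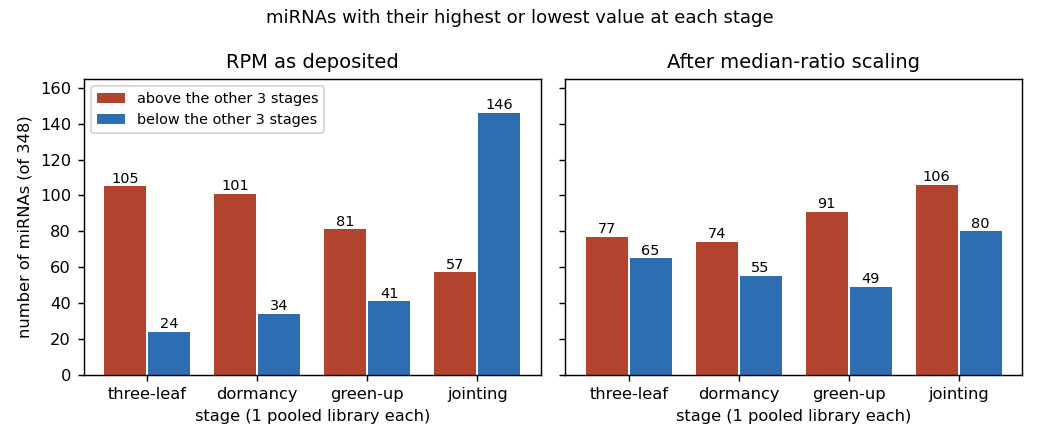
Number of the 348 miRNAs (y axis) whose value at a stage (x axis, 1 pooled library each) lay above (red) or below (blue) all other stages, as deposited on the left and after median-ratio scaling on the right. Dormancy changed from 101 above and 34 below to 74 and 55, while jointing changed from 57 and 146 to 106 and 80.

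A smaller set stood well apart. At least 2-fold above every growing stage and over 5 RPM at dormancy were 11 miRNAs (3.16% of 348), and at least 2-fold below every growing stage, with over 5 RPM in the nearest of them, were 10 (2.87%). Of these 11, 5 were listed at 0 in every growing stage and 4 had reads in every library. Of these 10, 4 were listed at 0 at dormancy and 6 had reads in every library. A fold against a 0 holds only where it stands for 3 reads or fewer. After median-ratio scaling the counts were 11 (3.16%) and 11 (3.16%), and all 11 and all 10 of the deposited scale were among them. The miRNA added on the low side was miR5077, at 68, 12.9, 28.9 and 15 RPM. It overlaps miR894 by 18 bases without a mismatch. Their sum as deposited lay between the growing stages, at 302.3, 79.9, 67 and 39.6 RPM. The same count as deposited gave 23 high and 3 low miRNAs for three-leaf, 12 and 6 for green-up and 25 and 49 for jointing. Of the miRNAs highest at dormancy 10.9% passed the 2-fold rule, compared with 43.9% of those highest at jointing, and of those lowest at dormancy 29.4%, compared with 33.6% at jointing.

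**Figure D2:**
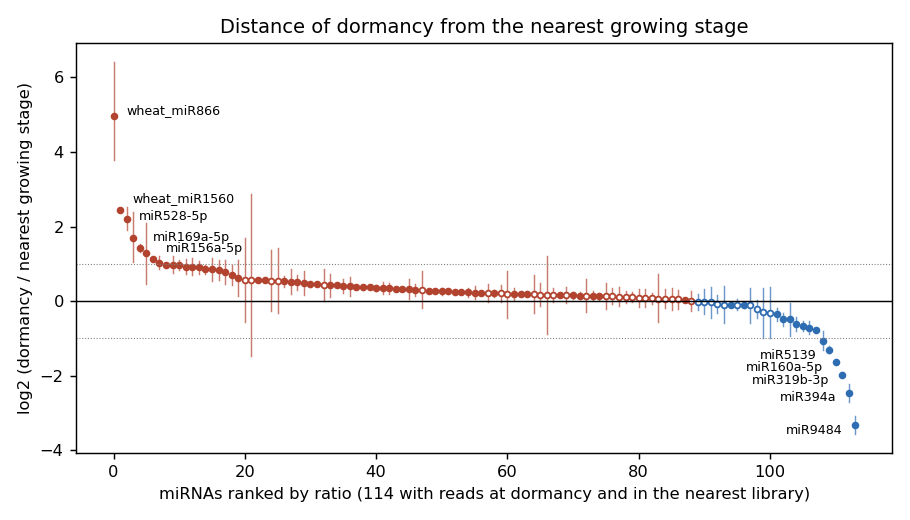
Log2 ratio of the dormancy value to the nearest growing stage (y axis) for the 114 miRNAs with reads in both libraries, ranked on the x axis, with those above all growing stages in red and those below in blue. Vertical lines are 95% counting intervals, open points have an interval that includes 0, and dotted lines mark a 2-fold ratio. The curve is flat over most of the red points and falls steeply at the blue end, where miR9484 reached -3.31.

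The copper miRNAs had the highest share of members above all growing stages among the family lists. The miR397, miR398, miR408 and miR528 families act on laccases, copper/zinc superoxide dismutases, plantacyanins and other copper proteins. Of the 7 listed, 6 were highest at dormancy (85.7%, against 29.0% of all miRNAs) and none was lowest. After median-ratio scaling 5 of them remained highest, on a scale where 21.3% of all miRNAs were highest. The list is short and was drawn up with earlier results of these data known, so nothing particular to it follows from the share.

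The largest ratio of the list as deposited was that of miR528-5p, a monocot miRNA directed against copper proteins. It was listed at 5.1, 24.6, 5.3 and 4.1 RPM. The growing stages were close to each other, and dormancy was 4.64 times the nearest (log2 2.21, interval 1.92 to 2.52; 2.97 times after scaling). The other strand, miR528a-3p, was at 1.2 and 3.9 RPM at three-leaf and dormancy and at 0 later, so it too was highest at dormancy, by 3.25 times (3.33 times after scaling, then the largest ratio of the list).

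The ratio of miR398 differed between its strands. The 5p strand miR398f-5p was at 42.2, 76.7, 8.4 and 7.7 RPM, a ratio of 1.82 to three-leaf (log2 0.86, interval 0.74 to 0.98). The 3p strand miR398a-3p, which acts on superoxide dismutase transcripts, was at 76.3, 91.7, 3.7 and 6.1 RPM, a ratio of 1.2 (log2 0.27, interval 0.17 to 0.36). Both strands were thus high at the early stages and low in spring, and dormancy exceeded three-leaf much less than it exceeded green-up. The laccase regulator miR397a was at 30.7, 35.2, 7.5 and 15.7 RPM, with a ratio of 1.15 to three-leaf (log2 interval 0.04 to 0.35). After scaling jointing was its nearest stage, with a ratio of 1.11. miR408d was listed at 0, 2.3, 0 and 2 RPM. Its interval of -0.45 to 0.82 included 0, and after scaling jointing was above dormancy. The remaining miR397-3p was listed at 0 in all but the jointing library, where it was at 1 RPM.

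Phase change miRNAs were found on both sides. miR156 represses SPL transcription factors and keeps plants juvenile, and miR172 acts on AP2-type repressors of flowering. In Brachypodium, miR5200 cleaves FT transcripts. Of 9 listed, 3 were highest (33.3%, near the 29.0% of all miRNAs) and 2 lowest (22.2%, against 9.77%), and all 5 kept their place after scaling. miR156a-5p was at 294, 640, 226.5 and 74.2 RPM. Dormancy was 2.18 times three-leaf (log2 1.12, interval 1.08 to 1.17), and the spring stages lay below both. After scaling green-up was above three-leaf and became the nearest stage, with a ratio of 2.09. A partner strand, miR156h-3p, was listed at 0, 39.4, 21 and 0 RPM. Another, miR156d-3p, was at 64.1, 0, 0 and 10.1 RPM and so did not follow miR156a-5p.

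The florigen regulator miR5200a-3p was at 437.5, 547.4, 16.4 and 79.6 RPM. It was high before spring, with dormancy 1.25 times three-leaf (log2 0.32, interval 0.28 to 0.36). The opposite strand, miR5200-5p, was at 157.3, 127.7, 2.4 and 14.7 RPM, so that three-leaf and not dormancy was its highest stage. On the low side, miR172a-5p was at 29.3, 23, 109.2 and 492.1 RPM and miR172e-3p, the strand that pairs with AP2-type transcripts, at 13.4, 12.7, 16 and 60.5 RPM. Both were highest at jointing. The dormancy dip of miR172e-3p was within counting error (log2 -0.08, interval -0.32 to 0.17), while that of miR172a-5p was not (log2 -0.35, interval -0.52 to -0.18).

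miR169, which acts on NF-YA subunits of a CCAAT-binding factor, had 2 of 4 miRNAs at the high end under both scales (50%, against 29.0% of all miRNAs as deposited and 21.3% after scaling). miR169a-5p was at 50.3, 134.9, 5.3 and 4.3 RPM, with dormancy 2.68 times three-leaf (log2 1.42, interval 1.32 to 1.53). miR169g was at 229.1, 295.9, 41.2 and 90.1 RPM, a ratio of 1.29. Both share the seed printed above and had the same highest stage. The closely related miR169n reached no more than 2 RPM, and miR169b-3p was listed at jointing alone, at 32.6 RPM.

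**Figure D3:**
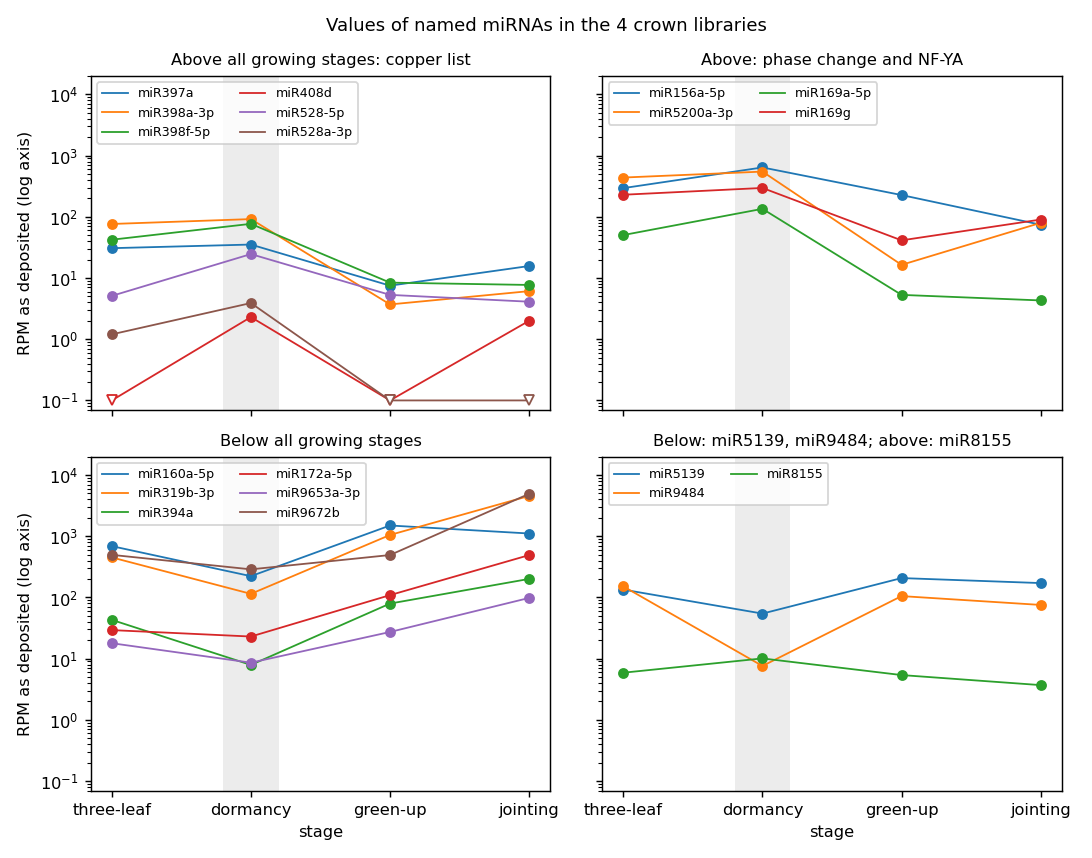
RPM as deposited (log axis) of named miRNAs at each stage (x axis), with dormancy shaded and 1 pooled library per point. Open triangles at 0.1 stand for a value listed at 0. miR528-5p, miR156a-5p and miR169a-5p peaked at dormancy, whereas miR160a-5p, miR319b-3p and miR394a had their lowest point there.

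Of the 3 miRNAs in the MYB and TCP list, 2 were lowest at dormancy (66.7%, against 9.77% of all miRNAs). After scaling all 3 were, against 15.8% of all miRNAs. miR319, which acts on TCP transcription factors of leaf growth, was lowest at dormancy in both of its strands. miR319b-3p was at 451.4, 114.5, 1049.7 and 4558.3 RPM. Dormancy was below every growing stage, and three-leaf was 3.94 times its value (log2 of dormancy over three-leaf -1.98, interval -2.04 to -1.91). The strand miR319-5p was at 5.2, 3.7, 35.5 and 70.4 RPM, 1.41 times lower than three-leaf. The related miR159a.1, which acts on GAMYB-type factors, was at 21980.1, 21378.4, 45173 and 14340.2 RPM. It lay between the growing stages as deposited and below them after scaling.

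miR160a-5p, which acts on auxin response factors, was at 689.9, 222.8, 1499 and 1108.9 RPM. Dormancy was the only low library, and three-leaf was 3.1 times as high (log2 -1.63, interval -1.68 to -1.58). Another auxin miRNA, miR167a, also acts on auxin response factors, of another clade. It stood at the other end, with 2248.6, 2945.5, 1053.3 and 286.1 RPM, and dormancy was 1.31 times three-leaf (log2 0.39, interval 0.37 to 0.41). The other 6 auxin-list miRNAs lay between the growing stages as deposited.

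miR394a, which acts on an F-box protein of the leaf and meristem, was at 43.1, 7.9, 79.5 and 201 RPM. Three-leaf was 5.46 times dormancy (log2 -2.45, interval -2.70 to -2.21), and the value was lowest at dormancy under both scales. miR394b-3p, a partner strand by its name alone, went the other way, at 41 RPM at dormancy and 0 in every growing stage. Of the 46 families with more than 1 miRNA in the table, grouped by name, miR394 was the 1 with miRNAs at both ends. Summed over its 4 miRNAs it was at 45.8, 48.9, 82.1 and 202.1 RPM, between the growing stages. In the same list miR165a-5p was at 102.3, 0, 45.1 and 4 RPM, whereas miR165a-3p, the strand that acts on HD-ZIP III factors, lay between the growing stages at 2739.1, 2394.1, 1465.5 and 644.1 RPM. At each stage that value is the sum of those listed for miR164b-3p and miR164a, which leaves the level of miR165a-3p uncertain.

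Other conserved lists gave few extremes. Of 5 miRNAs in families directed against GRAS and MADS factors, miR171k-5p alone was highest, at 0.9, 2.2, 0.3 and 0.3 RPM. The list goes by family number and not by strand. The 4 of the GRF list, the 2 of the AGO1 list and the 4 of the nutrient list had none at either end as deposited. Of 5 miRNAs in families directed against NLR immune receptors, miR9863a-3p was highest, at 545.9, 657.2, 518 and 290.6 RPM. It is known in barley to act on Mla transcripts. Its place depended on the scale, since after median-ratio scaling it was no longer highest. Of 20 miRNAs in families that resemble transposons, 2 were highest (10%, against 29.0% of all miRNAs) and 4 lowest (20%, against 9.77%). The 2 highest, miR1120b-3p and miR1136, lost that place after scaling. Of the 4 lowest, miR1121 was at 11.1, 0, 9.1 and 12.9 RPM. As deposited, miR1130, miR1130b-3p and miR1131 were within 1.08 times of the nearest growing stage. After scaling 6 of the 20 were lowest, these 4 included, while 15.8% of all miRNAs were lowest. Three-leaf was then 1.45 times dormancy for miR1131 and 1.04 times for miR1130 and miR1130b-3p.

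**Figure D4:**
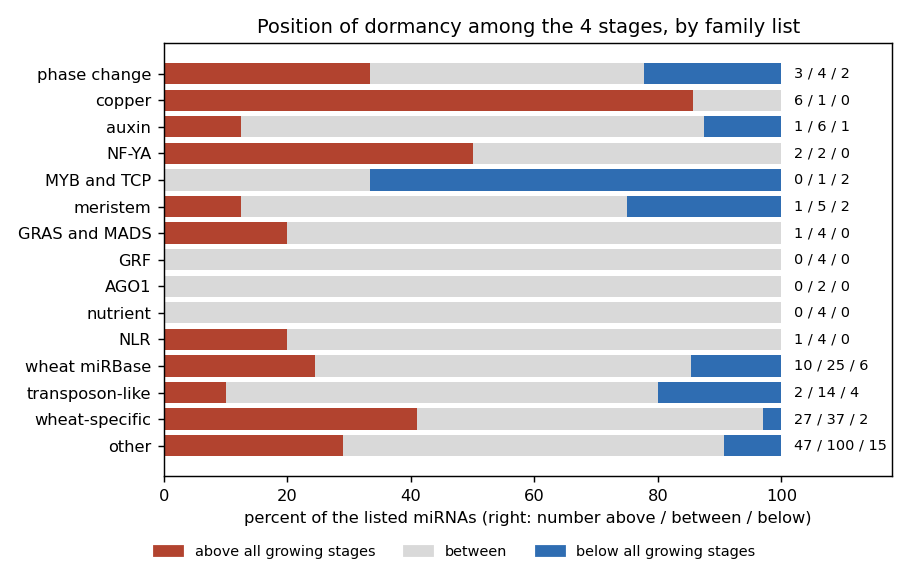
Share of each family list (y axis) whose dormancy value lay above all growing stages (red), between them (grey) or below them (blue), in percent on the x axis, with the numbers at the right. The copper list had 6 of 7 above and the wheat-specific list 27 of 66 above and 2 below.

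The families miR9652 to miR9679 and miR9772 to miR9783, known from wheat and listed in miRBase, had 10 of 41 highest (24.4%, against 29.0% of all miRNAs) and 6 lowest (14.6%, against 9.77%). After scaling 7 were highest and 12 lowest. The whole table moved the same way, with 21.3% of all miRNAs highest and 15.8% lowest after scaling. The largest ratio above the growing stages was that of miR9669-5p, at 450.2, 889.1, 350.3 and 119.2 RPM, 1.97 times three-leaf (log2 0.98, interval 0.95 to 1.02). miR9652-5p was the most abundant of the 10, at 2263.7, 2688.1, 1419.7 and 166.6 RPM, but only 1.19 times above three-leaf. On the low side, miR9672b was at 496.7, 287.9, 493.5 and 4929 RPM and miR9672a-3p at 33.8, 23.1, 32.4 and 224.8 RPM. These overlap by 19 bases without a mismatch, so their reads may not be independent, and both were lowest at dormancy and highest at jointing. miR9653a-3p was at 17.9, 8.6, 27.3 and 98.3 RPM, 2.08 times below three-leaf (log2 -1.06, interval -1.32 to -0.79). miR9654b-3p was at 49.4, 30.9, 90.2 and 49.1 RPM, 1.59 times below jointing.

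The wheat_miRNAs, a wheat-specific set found by the study group and named by number, were highest at dormancy in 27 of 66 cases (40.9%, against 29.0% of all miRNAs) and lowest in 2 (3.03%, against 9.77%). After scaling 22 of the 27 remained highest, and the number of lowest rose from 2 to 7, both of the 2 included. Over all miRNAs the scaled shares were 21.3% highest and 15.8% lowest. The median ratio of the 27 was 1.42, and 18 of the 26 with reads in the nearest library had an interval beyond 1. Over all 101 highest the median ratio was 1.29, and 62 of 89 had such an interval, a similar share. wheat_miR1560 was listed at 0, 1516.89, 0 and 277.01 RPM. It ranked among the abundant miRNAs at dormancy, 5.48 times jointing (log2 2.45, interval 2.41 to 2.49; 2.71 times after scaling), and at 0 in the other libraries. wheat_miR866 was at 0, 8.43, 0.27 and 0.24 RPM, 31.2 times green-up, but with few reads in the growing stages (log2 interval 3.79 to 6.41; 17.4 times jointing after scaling).

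Smaller ratios were those of wheat_miR450, at 18.96, 38.62, 9 and 4.09 RPM, and of wheat_miR2129, at 12.04, 23.67, 7.36 and 6.83 RPM. Their ratios to three-leaf were 2.04 and 1.97. wheat_miR553, wheat_miR354 and wheat_miR1250 reached 11.83, 15.63 and 14.42 RPM at dormancy, with ratios of 1.81, 1.78 and 1.61 to three-leaf. wheat_miR1202 was at 1473.2, 1508.27, 963.52 and 571.18 RPM, with dormancy close to three-leaf and above the spring stages (log2 0.03, interval 0.01 to 0.06). wheat_miR1356 is contained in it and had the same order at 36.08, 38.08, 25.13 and 15.91 RPM. The 2 lowest were wheat_miR1306, at 7.52, 0, 3.52 and 2.26 RPM, and wheat_miR947, at 27.45, 17.97, 32.71 and 33.65 RPM.

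Among the remaining 162 known miRNAs, 47 were highest and 15 lowest, which is 29% and 9.26% and thus near the shares of 29.0% and 9.77% over all miRNAs. After scaling these were 30 and 18, while 21.3% and 15.8% of all miRNAs were then highest and lowest. The most abundant at dormancy among the 135 was miR5048-5p, at 5891.1, 8765.7, 3809 and 1873.7 RPM, 1.49 times three-leaf (log2 0.57, interval 0.56 to 0.58). miR5062a was at 4095.8, 4682.5, 1887.2 and 1673.6 RPM, a ratio of 1.14. miR9484 had the deepest dip with reads in every library, at 151.7, 7.6, 105.3 and 75.5 RPM. Jointing was 9.93 times dormancy (log2 -3.31, interval -3.56 to -3.07), and green-up, the nearest after scaling, was 18.8 times. The growing stages differed far less among themselves. Whether the reads of miR9484 came from a miRNA hairpin or from another RNA such as rRNA was not tested. miR5384-3p was at 36.7, 18.7, 31.4 and 30.5 RPM, again with close values in the growing stages and a ratio of 1.63 to jointing.

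miR5139 and miR8155 differ by the added base shown above, yet dormancy was the lowest for the shorter and the highest for the longer. Whether both come from a miRNA hairpin or from another RNA such as tRNA was not tested. miR5139 was at 134.4, 54.5, 207.4 and 171.8 RPM, 2.47 times below three-leaf (log2 interval -1.40 to -1.20). miR8155 was at 5.9, 10.1, 5.4 and 3.7 RPM, 1.71 times above three-leaf (log2 interval 0.45 to 1.10). Because miR8155 contains all of miR5139, their reads may not be independent. As listed, the share of the longer form in their sum was 4.21% at three-leaf, 15.6% at dormancy, and 2.54% and 2.11% at the spring stages. Their sum, at 140.3, 64.6, 212.8 and 175.5 RPM, was lowest at dormancy.

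With at most 2 mismatches over at least 18 bases, 25 of the 135 miRNAs had a related sequence in the table, in 30 pairs. Both of a pair stood at the same end in 6 of these, and at opposite ends in 3. Pairs without any of the 135 are not counted here. Whether these numbers differ from those of the table as a whole was therefore not tested. Besides miR5139 and miR8155, the opposite pairs were miR1130b-3p with miR1120b-3p and miR1130b-3p with miR5205b. miR5205b, named after its values were seen, was at 83.4, 96.7, 0 and 0 RPM. When related sequences were summed, 307 entries remained, of which 91 were highest and 30 lowest.

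A group of 12 miRNAs was listed with reads at dormancy alone, compared with 9 for three-leaf, 10 for green-up and 20 for jointing. The range was 0.5 to 760.8 RPM with a median of 2.5, and 5 were over 5 RPM. miR8135 had 760.8 RPM, at least 5275 times the value that 3 reads give at jointing (2609 times after scaling) if its 0 stands for no more than that. miR5241a had 48.2, miR394b-3p 41, miR3627a 26.5 and miR774a-5p.1 24 RPM, all far above the smallest listed value of 0.3 RPM in that library. miR5241a overlaps miR1023a-3p by 19 bases without a mismatch. miR1023a-3p was at 169.4, 506.2, 576.7 and 0 RPM, so a sequence sharing those bases was read at other stages, and their sum was highest at green-up.

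The reverse group of 9 miRNAs was listed in every growing stage and at 0 at dormancy, compared with 9 for three-leaf, 8 for green-up and 23 for jointing. Over 5 RPM in all growing stages were miR1121, described above, and 3 further miRNAs. miR4403 was at 12.6, 0, 18.3 and 14.8 RPM, miR5153 at 10.5, 0, 14.7 and 14.7 RPM, and miR5281b at 9.9, 0, 22.6 and 20.8 RPM. Against the value of 3 reads, the dormancy level was at least 86.2, 71.9 and 67.8 times lower than three-leaf. Each was listed at 9.9 RPM or more in every growing stage.

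Length, 5′ base and strand were not used to choose the miRNAs. Those of 24 bases, a length typical of small RNAs from repeats, made up 22.1% of the table, 16.8% of the highest and 20.6% of the lowest. After scaling they were 8 of 74 highest and 8 of 55 lowest. A U as 5′ base, which AGO1 of Arabidopsis prefers, was found in 43.7% of all, 53.5% of the highest and 44.1% of the lowest. Of the 56 miRNAs named as 5p strands, 23 were highest (41.1%, against 29.0% of all miRNAs) and 6 lowest (10.7%, against 9.77%). Of the 74 named as 3p strands, 15 were highest (20.3%) and 12 lowest (16.2%). These counts after scaling were 16 and 11 for 5p and 10 and 15 for 3p, while 21.3% and 15.8% of all miRNAs were then highest and lowest.

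The rule has no minimum distance, and the miRNAs next to its limit differed from the nearest growing stage by little. Just above the highest growing stage were miR9782 with a ratio of 1.01 and wheat_miR1202 with 1.02, and just under it wheat_miR259 with 0.997 and miR5059 with 0.992. Just below the lowest growing stage were miR531 with 0.988 and miR1877 with 0.986, and just over it miR2199 and miR6219-5p, both with 1.01. The sequence of miR1877 is also listed as miR5050 with other values, so its place is uncertain. Of the 101 highest, 20 were under 5 RPM at dormancy, where the rounding of known miRNAs to 0.1 RPM is about 2 reads.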

How the data were processed

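The authors sequenced 1 small RNA library per stage on a BGISEQ instrument, kept reads of 18 to 30 nt, removed rRNA, tRNA, snRNA, snoRNA and repeat reads with SOAP and assigned known miRNAs by BLASTN against miRBase. wheat_miRNAs came from earlier leaf libraries or MIREAP. The tool versions are not given in the sources used here. For expression, the authors divided tag counts by mapped reads and multiplied by 1000000, which gives RPM. The deposited RPM are rounded to 1 decimal (282 known miRNAs) or 2 decimals (66 wheat_miRNAs).

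Members and lists were chosen with earlier results of these data known. Named were members with a ratio of at least 1.5 under both scales and over 5 RPM, members of family lists, their relatives, members over 1000 RPM at dormancy and those next to the limit. Depth was estimated from the steps of wheat_miRNA values. Median-ratio factors used the 200 miRNAs above 0 in all libraries. Functions were tested on simulated data. DEGseq was not run, and genome positions were not analysed here. Whether a listed sequence, known or wheat_miRNA, also occurs in rRNA or tRNA was not tested. Python 3.11.15, numpy 2.4.6, scipy 1.17.1 and matplotlib 3.10.9 were used.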

Additional observations from a re-analysis of the deposited data

How the results depend on the processing

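No paired analysis was possible because each stage had 1 library. As deposited, 101 miRNAs were highest and 34 lowest at dormancy, with 11 and 10 beyond 2-fold. The count of highest became 61 among the 200 miRNAs above 0 in all libraries and 172 without the three-leaf library. Counts among these 200, here and for the 2-fold sets below, have a smaller base. They are not directly comparable with counts over the 348. The count of lowest became 55 after median-ratio scaling, 55 without three-leaf and 64 without jointing. The 2-fold highs became 20 with no level filter, 4 among miRNAs above 0 in all libraries, 65 without three-leaf, 20 without green-up and 22 at a fold of 1.5. The 2-fold lows became 6 among miRNAs above 0 in all libraries, 20 without three-leaf, 20 without jointing and 6 at a fold of 4. Leaving out a library compares fewer stages, which can only keep or raise these counts. Of 60 named highs, 13 changed sign under median-ratio scaling, 11 under scaling to the summed RPM and 8 under median-ratio scaling over miRNAs of at least 5 RPM. Of 25 named lows this was 0, 0 and 3. None of the 2-fold miRNAs changed sign, but their selection largely fixed this. Scaling cannot reverse a ratio against a 0, and the others were chosen to be at least 2-fold apart. The depth limits miRNAs under 5 RPM, and a value of 0 was taken as 3 reads, although it could stand for more.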
